A study of Rattus norvegicus with 18 samples.

Results

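Kisspeptin, the tachykinins substance P and neurokinin B, their receptors and gonadotropin-releasing hormone (GnRH) form the hypothalamic circuit through which estradiol acts on the gonadal axis. The genes described are Kiss1, Kiss1r, Tac1, Tac3, Tacr1, Tacr3 and Gnrh1. They were taken as the probe sets that carry these symbols in the platform's annotation, with the brightest one kept per symbol. Of the 7 genes, 6 were measured, each by 1 probe set, among 23188 gene probe sets in all. Kiss1 has no probe set with its name in this annotation, so no value of Kiss1 is given.

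The tissue came from female rats of the Sprague-Dawley strain, all ovariectomized (OVX), so that the ovary's own estradiol was removed in every group. Their age is given as 90 days, which in the methods is the age at ovariectomy, before recovery and treatment. EB-treated rats were injected 2 times under the skin with EB, each dose being 10 µg in an oil volume of 0.1 mL, and Oil-treated rats with the same volume of oil alone. EB is estradiol benzoate in the study's methods and 17β-estradiol in the sample labels. Punches from both sides of the hypothalamic arcuate nucleus (ARC) and paraventricular nucleus (PVN) and, in the hindbrain, of the NTS (nucleus of the solitary tract) were taken on day 4, and the study asked how EB changes gene expression in regions that govern eating. Each of the 6 groups, ARC EB, ARC Oil, PVN EB, PVN Oil, NTS EB and NTS Oil, holds 3 biological replicates, which makes 18 Rat Clariom S arrays. The labels do not say which punches came from the same rat. A punch holds many cell types, and fewer cells of a type cannot be told apart from less RNA per cell.

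In the ARC, a population of neurons makes kisspeptin, neurokinin B and dynorphin together. Neurokinin B excites these neurons, dynorphin restrains them, and their kisspeptin reaches the GnRH neurons and their terminals in the median eminence. The neurons carry estrogen receptor α, and estradiol is known to lower Kiss1 and Tac3 expression there, while GnRH neurons themselves lie mostly in the preoptic area, ahead of the regions punched. Substance P is made by many neurons outside this circuit, including those of the brainstem and of sensory nerves that end in the NTS.

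Signal intensities are on the Log 2 scale, where a difference of 1 is a fold change of 2. Each array carries 23 background probe sets, whose median lay between 6.74 and 7.60 and serves here as the limit below which a signal is not told apart from background. The signals of the 6 genes spanned very different ranges. Tac1, Tacr1 and Tacr3 exceeded the background median in all 18 arrays, Tac3 in 10, Gnrh1 in 4 and Kiss1r in 2.

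Several arrays stand apart in marker genes fixed for each region, with markers of neighbouring tissue alongside. ARC Oil 1 averaged 10.04 over the 6 PVN markers, where the other 5 ARC arrays averaged 7.05 to 7.53. Of the ARC arrays, it was highest for Oxt, the oxytocin gene, Avp, the vasopressin gene, and Trh. Sim1 was highest in ARC Oil 3 (9.32), Otp in ARC EB 1 (8.62) and Crh in ARC Oil 2 (7.65). ARC EB 2 had the lowest mean of the 6 ARC markers in its region, 8.39, against 9.75 to 11.73 in the other ARC arrays. Pomc, Agrp and Tbx3 were lowest in ARC EB 2, and Npy was equally low in ARC Oil 3 (12.65). Cartpt was lowest in ARC Oil 1 (14.34) and Ghrh, below background in all ARC arrays, in ARC EB 3 (5.97). ARC EB 2 and EB 3 averaged 10.28 and 9.08 over 6 midbrain dopamine and mammillary markers, against 7.51 to 7.96 in the other ARC arrays. Slc6a3, Th, Foxa2 and Lmx1a were highest in ARC EB 2 and EB 3. Foxb1 was highest in ARC Oil 3 (9.64), and Foxa1 was below background in all ARC arrays. PVN Oil 1 and Oil 3 averaged 6.91 and 6.97 over the PVN markers, against 8.29 to 11.11 in the other PVN arrays, and 8.94 and 9.01 over the midbrain markers, against 6.38 to 6.93. Oxt, Avp and Otp were lowest in Oil 1 and Oil 3. Sim1 was not, at 8.50 in Oil 1 and 8.37 in Oil 3, against 7.79 in Oil 2 and 6.96 in EB 3. Trh was lowest in EB 3 (4.65). Oxt and Avp were the PVN markers called higher with EB in the PVN, so treatment and punch cannot be told apart for them. Of the midbrain list, Foxb1 and Foxa1 were below background in every PVN array. NTS Oil 3 had a dorsal vagal marker mean of 7.45, against 8.83 to 9.67 in the other NTS arrays. Dbh, Gcg and Prlh were lowest in NTS Oil 3, whereas Tmem163 was highest there (8.84) and Calcr was not low (9.37). By region, 5 of the 6 ARC markers were called higher in the ARC than in the NTS and 3 of 6 higher than in the PVN. Of the PVN markers, 3 of 6 were called higher in the PVN than in the NTS and 0 of 6 differed between ARC and PVN. Over all genes, 7.13% were called between ARC and NTS, 2.23% between ARC and PVN and 5.55% between PVN and NTS. The values of these arrays are given beside each result they touch.

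The promoters of the 2 neurokinin receptors are shown because Tacr1 was called between regions in these data and Tacr3 was not. Each run holds the 250 bases before the transcription start, 5′ to 3′ on the gene's strand, from RefSeq on build GRCr8. Tacr1 lies at chr4:116478367-116478616 (plus strand) and Tacr3 at chr2:225940247-225940496 (plus strand). Capitals mark an estrogen response element half-site (GGTCA or TGACC), the core of a cAMP response element (TGACG or CGTCA) and the TATA box letters TATAAA. The half-site and cAMP core were read as the same letters on either strand, the TATA letters on the gene's strand only, and no marked matches overlap.
Tacr1: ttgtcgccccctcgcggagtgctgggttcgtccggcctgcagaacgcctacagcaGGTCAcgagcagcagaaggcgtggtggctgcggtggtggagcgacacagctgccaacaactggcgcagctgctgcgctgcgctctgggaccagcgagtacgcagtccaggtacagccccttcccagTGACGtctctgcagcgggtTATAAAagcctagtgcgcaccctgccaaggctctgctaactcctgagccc
Tacr3: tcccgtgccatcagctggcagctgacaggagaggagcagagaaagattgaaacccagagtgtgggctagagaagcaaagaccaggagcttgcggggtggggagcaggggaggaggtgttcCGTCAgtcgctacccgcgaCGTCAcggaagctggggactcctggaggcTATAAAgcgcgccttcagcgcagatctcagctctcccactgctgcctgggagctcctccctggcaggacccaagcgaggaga
The Tacr1 window holds a half-site 195 bases before the start, a cAMP core at 69 and TATAAA at 50. The Tacr3 window holds 2 cAMP cores, 130 and 111 bases before the start, and TATAAA at 82, with no half-site letters. Half-sites did not follow the calls in the windows not shown. The window of Tac1, also called between regions, holds none, and that of Kiss1r, not called, holds 2. Among 33469 rat promoter windows of this length, 35.4% hold a half-site, 18.2% a cAMP core and 8.06% TATAAA. These matches describe the letters of the windows and say nothing of binding.

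**Figure D1:**
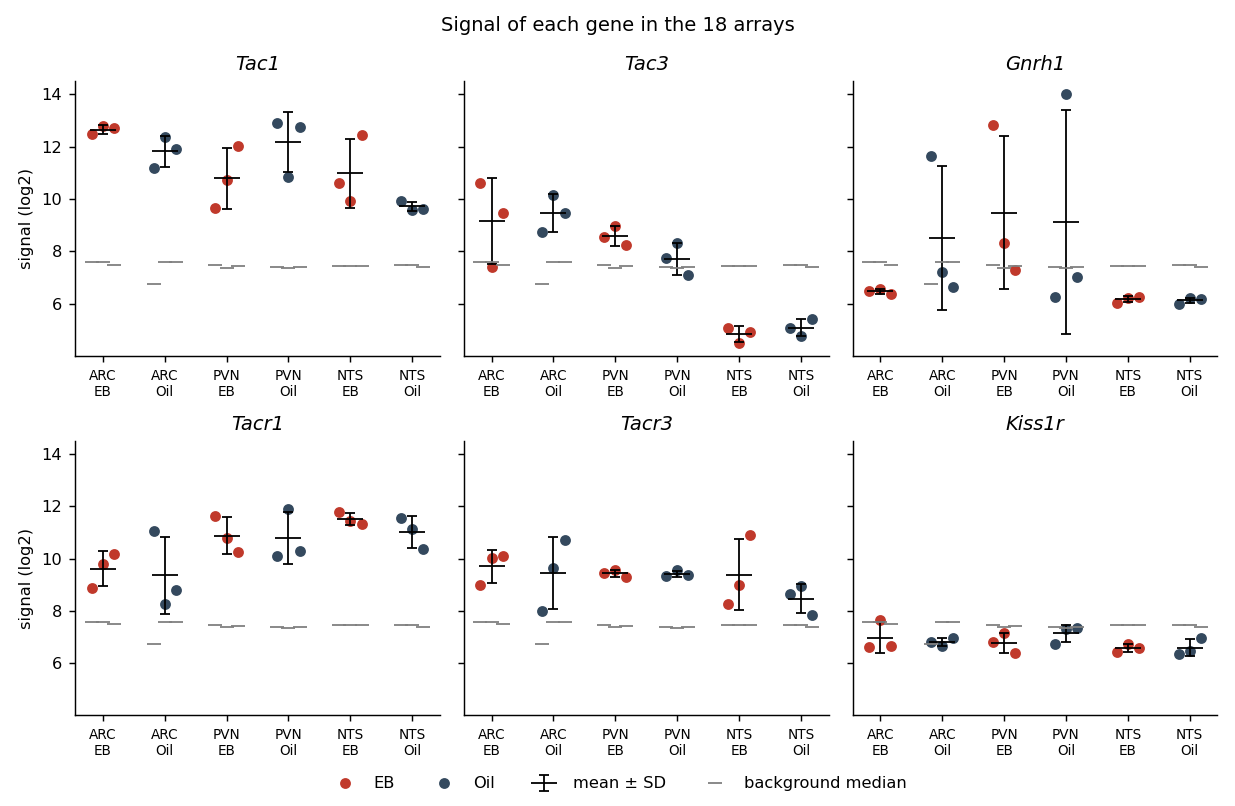
Signal intensity (log2, vertical axis) of the 6 measured genes in each of the 18 arrays, by region and treatment, with EB left of Oil. Points are arrays, bars show the mean ± SD of 3 arrays and grey ticks each array's background median. Tac3 lies below the ticks in all 6 NTS arrays, and Gnrh1 reaches 11.66, 12.81 and 14.03 in single arrays of different groups.

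Tac1, which encodes substance P and neurokinin A, had signals of 12.47, 12.80 and 12.70 in the ARC EB arrays, against 11.18, 12.37 and 11.92 in the ARC Oil arrays. All EB arrays were above all Oil arrays, by as little as the step between EB 1 and Oil 2. The means were 12.66 ± 0.17 with EB and 11.82 ± 0.60 with Oil (SD, n = 3 each). The difference was 0.83 (SE 0.29, 95% interval 0.16 to 1.51), a fold change of 1.78, with an unadjusted p of 0.0219 and an adjusted p of 0.852 over all genes (limma). It did not reach the fold change of 2 that a call required here together with p of 0.05 or less. The exact permutation p was 0.1, the smallest that 3 against 3 allows. Over all genes, EB and Oil did not overlap in the ARC for 11.2%, and with EB higher for 5.77%. Without ARC Oil 2 the difference was 1.11 and passed the call, and without ARC Oil 1 it was 0.51. ARC EB 2 and EB 3, with the high midbrain marker means, had the highest Tac1 signals. Without both, which leaves 1 EB array, the difference was 0.65.

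In the PVN, Tac1 signals were 9.67, 10.71 and 12.01 with EB, against 12.91, 10.85 and 12.74 with Oil. PVN Oil 1 and Oil 3 were the highest, and the groups overlapped through EB 3 and Oil 2. The difference was -1.37 (SE 0.70, 95% interval -2.99 to 0.25, unadjusted p = 0.0869, adjusted p = 0.806, limma). Hcrt, a lateral hypothalamus marker, was also highest in the 3 arrays with the highest Tac1, at 12.36 in Oil 1, 12.03 in Oil 3 and 10.06 in EB 3, against 8.07 to 8.23 in the other PVN arrays. The other such marker, Pmch, did not follow, at 15.31 in Oil 1 and 15.32 in Oil 3, below 15.67 to 16.93 in the EB arrays. PVN Oil 1 and Oil 3 also had the high mean of the midbrain markers and the low mean of the PVN markers, in which not all members agreed, as given above. Without Oil 1 and Oil 3, a setting chosen after seeing the data that leaves 1 Oil array, the Tac1 difference was -0.05. Leaving out single arrays, it was -0.81 without EB 1, and it passed the call without EB 3 (-1.98) or without Oil 2 (-2.03).

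In the NTS, Tac1 signals were 10.61, 9.91 and 12.46 with EB, against 9.93, 9.59 and 9.64 with Oil. NTS EB 3 stood far above the other 5 arrays, which lay within 9.59 to 10.61. The difference was 1.27 (SE 0.59, 95% interval -0.13 to 2.68, unadjusted p = 0.0690, adjusted p = 0.934, limma). Without EB 3 it was 0.54, and without EB 2 it was 1.82 and passed the call. NTS EB 3 also held the most signal for 5 choroid plexus markers, a mean of 14.97, with 6.51 and 6.70 in NTS EB 1 and EB 2 and 13.00, 13.00 and 8.56 in the Oil arrays. Without NTS EB 3 and NTS Oil 3, whose markers stand apart, the Tac1 difference was 0.50.

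Tac3, which encodes neurokinin B, had signals of 10.62, 7.40 and 9.45 in the ARC EB arrays, against 8.75, 10.17 and 9.48 in the ARC Oil arrays. The EB arrays held both the highest and the lowest value, and EB 2 was below its background median. The difference was -0.31 (SE 0.76, 95% interval -2.09 to 1.47, unadjusted p = 0.693, adjusted p = 0.966, limma). The interval spans a fold change of 2 in both directions, so a change of that size was not detectable here. Tac3 followed the mean of the 6 ARC markers across these arrays at its extremes. The 2 highest Tac3 arrays, EB 1 and Oil 2, had marker means of 11.32 and 11.73, and the lowest, EB 2, had 8.39. Without EB 2 the difference was 0.57.

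In the PVN, Tac3 signals were 8.56, 8.97 and 8.23 with EB, against 7.74, 8.33 and 7.10 with Oil. The groups overlapped only where Oil 2 exceeded EB 3. The difference was 0.86 (SE 0.32, 95% interval 0.11 to 1.61, unadjusted p = 0.0293, adjusted p = 0.746, limma), a fold change of 1.81 that was not called. The lowest signals were those of Oil 3 and Oil 1, the PVN arrays with the lowest PVN marker means, though not the lowest Sim1. Without both of them the difference was 0.25, and without Oil 3 alone it was 0.55. Without PVN EB 3 it was 1.04 and without PVN Oil 2 it was 1.16, and both passed the call. In the NTS all 6 Tac3 signals, from 4.49 to 5.42, were below the background median, and no fold change is given.

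Gnrh1, the GnRH gene, was above background in 4 arrays alone, 1 in the ARC and 3 in the PVN. In the ARC its signals were 6.51, 6.56 and 6.36 with EB, against 11.66, 7.23 and 6.64 with Oil. ARC Oil 1 was the only one of these above its background median. The difference of -2.03 (SE 1.17, 95% interval -4.77 to 0.70, unadjusted p = 0.123, adjusted p = 0.864, limma) rests on that array and was -0.46 without it. Every signal left without ARC Oil 1 was below background, so no fold change can be read from them. With the background median in place of the EB signals, the fold change of the means is 1.92, and it too rests on ARC Oil 1. Without ARC Oil 3 the difference was -2.97 and passed the call, although the EB signals it is set against are below background. The groups did not overlap, as for 11.2% of all genes, but 5 of the 6 signals were below background. ARC Oil 1 is also the ARC array with the high mean of the PVN markers, at 14.52 for Oxt and 14.12 for Avp. In the other ARC arrays Oxt was at most 7.92 and Avp at most 7.10. The PVN markers Sim1 (8.17), Otp (8.49) and Crh (7.13) were not highest in ARC Oil 1.

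In the PVN, Gnrh1 signals were 12.81, 8.33 and 7.31 with EB, against 6.26, 14.03 and 7.04 with Oil. The highest signal of each treatment stood far above the others, and EB 1, EB 2 and Oil 2 were above background. The difference was 0.37 (SE 2.17, 95% interval -4.69 to 5.43, unadjusted p = 0.869, adjusted p = 0.991, limma). Its sign turned without EB 1 (-1.29), Oil 1 (-1.06) or Oil 3 (-0.66), and without Oil 2 it was 2.83. EB 1, EB 2 and Oil 2 were also among the 4 PVN arrays with Oxt signals above background, at 15.78 in EB 1, 16.10 in EB 2 and 14.87 in Oil 2, with 12.36 in EB 3. In the NTS all Gnrh1 signals lay between 6.01 and 6.26, below background.

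Tacr1 encodes the neurokinin 1 receptor, which prefers substance P. Its ARC signals were 8.88, 9.78 and 10.19 with EB, against 11.04, 8.27 and 8.81 with Oil. ARC Oil 1, the array with the high PVN marker mean, had the highest value and Oil 2 the lowest. The difference was 0.25 (SE 0.69, 95% interval -1.37 to 1.87, unadjusted p = 0.732, limma), and without ARC Oil 1 it was 1.08 and passed the call. In the PVN the signals were 11.62, 10.78 and 10.25 with EB, against 10.11, 11.91 and 10.31 with Oil, a difference of 0.11 (95% interval -1.10 to 1.31). The treatments overlapped fully. In the NTS they were 11.78, 11.44 and 11.32 with EB, against 11.55, 11.14 and 10.37 with Oil, a difference of 0.49 (95% interval -0.22 to 1.21), which did not pass.

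Tacr3 encodes the neurokinin 3 receptor, which prefers neurokinin B. Its ARC signals were 8.99, 10.03 and 10.10 with EB, against 7.99, 9.65 and 10.71 with Oil. The Oil arrays held both extremes. The difference was 0.26 (SE 0.65, 95% interval -1.26 to 1.77, unadjusted p = 0.704, limma). In the PVN, Tacr3 was nearly even, at 9.44, 9.57 and 9.31 with EB, against 9.33, 9.56 and 9.39 with Oil. There the difference was 0.01, with a 95% interval of -0.29 to 0.32 that holds no fold change of 2. In the NTS, signals were 8.26, 9.00 and 10.90 with EB, against 8.64, 8.94 and 7.85 with Oil. NTS EB 3 was again the highest, and the difference of 0.91 (95% interval -0.64 to 2.46, unadjusted p = 0.207) was 0.15 without it.

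Kiss1r, the kisspeptin receptor, lay between 6.35 and 7.66 over the 18 arrays. It exceeded background in ARC EB 2 at 7.66 and in ARC Oil 1 at 6.80, the array with the lowest background. The ARC difference was 0.18 (SE 0.28, unadjusted p = 0.546, limma). In the PVN and NTS no array was above background and no fold change is given.

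**Figure D2:**
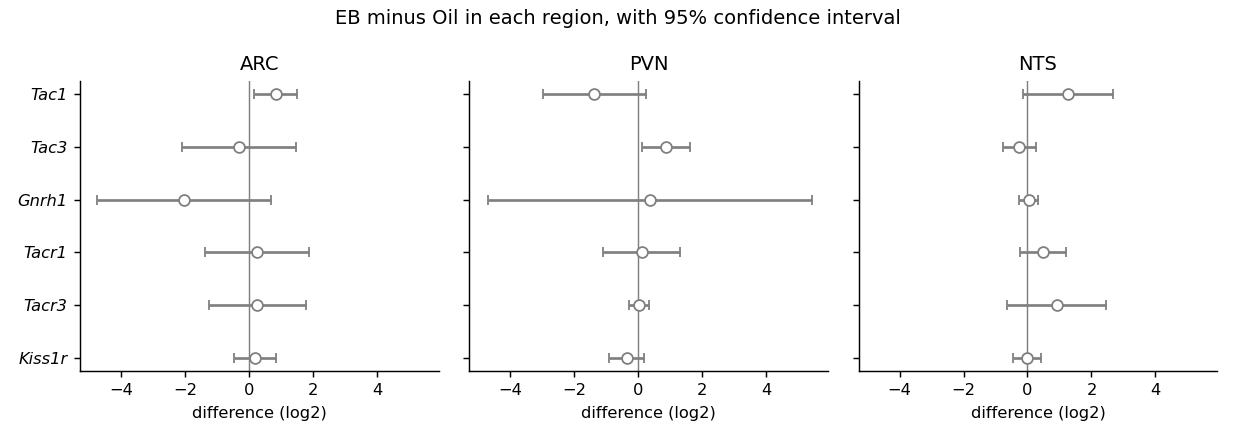
EB minus Oil (log2, horizontal axis) for the 6 genes in the ARC, PVN and NTS. Points are differences of group means and bars their 95% confidence intervals from limma, with open points for differences that were not called. The intervals of Tac1 in the ARC (0.16 to 1.51) and Tac3 in the PVN (0.11 to 1.61) lie right of 0, and no gene was called.

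Altogether 0 of the 6 genes were called for EB in the ARC, where 0.479% of all genes were called, 0 of 6 in the PVN, where 0.332% were, and 0 of 6 in the NTS, where 0.0776% were. At an unadjusted p under 0.05, without the fold change, 1 of 6 passed in the ARC (Tac1), 1 of 6 in the PVN (Tac3) and 0 of 6 in the NTS, beside 5.66%, 6.39% and 4.65% of all genes. Over all genes the median difference was 0.01 (ARC), 0 (PVN) and -0.01 (NTS).

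The estimated EB effect on Tac1, not called in any region, was opposite in sign in the PVN to that in the ARC and NTS. In 1 fit of all arrays it was 2.20 higher in the ARC than in the PVN (SE 0.92, 95% interval 0.25 to 4.16, unadjusted p = 0.0299, adjusted p = 0.966, limma). Between PVN and NTS the EB effect on Tac1 differed by -2.64 (SE 0.92, 95% interval -4.60 to -0.69, unadjusted p = 0.0114, adjusted p = 0.999). Between ARC and NTS it differed by -0.44 (95% interval -2.40 to 1.52), and none of the 6 genes had an unadjusted p under 0.05, beside 6.1% of all genes. No difference of the EB effect between regions passed adjustment for any of the 6 genes or for any other gene. Tac1 was the 1 of 6 with an unadjusted p under 0.05, beside 5.02% of all genes for ARC against PVN and 3.88% for PVN against NTS. PVN Oil 1 and Oil 3, with the highest Tac1 of the region, are named above for their markers, and PVN EB 1, with the lowest (9.67), is not.

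Between regions, with EB and Oil averaged, Tac1, Tac3 and Tacr1 were called apart in at least 1 comparison, and Tacr3, Gnrh1 and Kiss1r in none. A gene was called here at an adjusted p under 0.05 over all genes and a fold change of 2 or more. For ARC minus NTS, 3 of the 6 genes were called, beside 7.13% of all genes. For ARC minus PVN 1 of 6 was called, beside 2.23%, and for PVN minus NTS 1 of 6, beside 5.55%. Arrays were taken as independent in this fit, although by the number of rats in the methods the regions share rats.

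Tac3 was highest in the ARC, with a median of 9.46 (7.40 to 10.62, n = 6), then the PVN, with 8.28 (7.10 to 8.97), and lowest in the NTS, at 4.49 to 5.42. No ARC or PVN array overlapped with an NTS array, as for 20.3% of all genes between ARC and NTS and 17.7% between PVN and NTS. The ARC exceeded the NTS by 4.35 (SE 0.41, adjusted p = 1.99e-06, limma; exact permutation p = 0.0022, the smallest that 6 against 6 gives) and the PVN exceeded the NTS by 3.19 (SE 0.41, adjusted p = 3.68e-05). All NTS signals were below background. With the background median in their place, the fold changes of the means are 3.62 for the ARC and 1.63 for the PVN. ARC EB 2 and PVN Oil 3 were themselves below background and were kept as they were. The ARC exceeded the PVN by 1.15 (SE 0.41, 95% interval 0.28 to 2.03), which was not called at an adjusted p of 0.0578. It was called without ARC EB 2 (1.59), without ARC Oil 1 (1.33) or without PVN Oil 2 (1.31).

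Tac1 was also highest in the ARC, with a median of 12.42 (11.18 to 12.80, n = 6), then the PVN, with 11.43 (9.67 to 12.91), and the NTS, with 9.92 (9.59 to 12.46). The ARC exceeded the NTS by 1.88 (SE 0.46, 95% interval 0.90 to 2.86), a fold change of 3.69 (adjusted p = 0.00406, limma; exact permutation p = 0.0087). The groups overlapped through NTS EB 3. Neither neighbour in this order was called apart. The ARC differed from the PVN by 0.76 (95% interval -0.22 to 1.74, adjusted p = 0.261), and the PVN from the NTS by 1.13 (95% interval 0.15 to 2.11, adjusted p = 0.0660). The PVN was called higher than the NTS without NTS EB 3 (1.49), PVN EB 1 (1.41) or PVN Oil 2 (1.46), whereas it was 0.82 without PVN EB 3. Within treatments, PVN minus NTS was -0.20 among EB arrays and 2.45 among Oil arrays, where it was called. ARC minus NTS was 1.66 among EB arrays, at an adjusted p of 0.0809.

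Tacr1 ran the other way, with medians of 9.33 in the ARC (8.27 to 11.04, n = 6), 10.55 in the PVN (10.11 to 11.91) and 11.38 in the NTS (10.37 to 11.78). The ARC was lower than the NTS by a difference of -1.77 (SE 0.44, 95% interval -2.71 to -0.83, adjusted p = 0.00462, limma; exact permutation p = 0.0043). ARC Oil 1, at 11.04, was the ARC array inside the NTS range. ARC minus NTS was -1.65 among Oil arrays alone, at an adjusted p of 0.0554. The ARC was also lower than the PVN, by a difference of -1.34 (SE 0.44, 95% interval -2.28 to -0.40, adjusted p = 0.0421). That call lies near its threshold. It was lost without ARC EB 1 (-1.15), ARC EB 2 (-1.38), ARC Oil 2 (-1.06), ARC Oil 3 (-1.20), PVN EB 1 (-1.15), PVN EB 2 (-1.36) or PVN Oil 2 (-1.05). It was also lost without NTS EB 1, EB 2 or Oil 2, which leave the difference at -1.34 and change the estimate of the spread. PVN and NTS differed by -0.44 (95% interval -1.38 to 0.50), which did not pass.

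Tacr3 did not pass in any comparison of regions. Its medians were 9.84 in the ARC (7.99 to 10.71, n = 6), 9.42 in the PVN (9.31 to 9.57) and 8.79 in the NTS (7.85 to 10.90). The 6 PVN arrays spanned 0.26, whereas the ARC arrays spanned 2.72 and the NTS arrays 3.06. ARC minus NTS was 0.65 (95% interval -0.29 to 1.59, adjusted p = 0.251), and it was called without ARC Oil 1 (1.01) or NTS EB 3 (1.03).

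Gnrh1 had medians of 6.60 in the ARC (6.36 to 11.66), 7.82 in the PVN (6.26 to 14.03) and 6.19 in the NTS (6.01 to 6.26). The PVN exceeded the NTS by 3.14 (SE 1.22, 95% interval 0.55 to 5.73), with an adjusted p of 0.0538 that misses the threshold. With the background median in place of the NTS signals, all below it, the fold change of the means is 3.58, with 3 of the 6 PVN signals above background. The difference was 1.91 without PVN Oil 2, and it was called without ARC Oil 1 (3.14), PVN EB 3 (3.68), PVN Oil 1 (3.85) or PVN Oil 3 (3.66). Kiss1r was not called between regions, with 2 arrays above background in the ARC and 0 in the PVN or NTS.

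**Figure D3:**
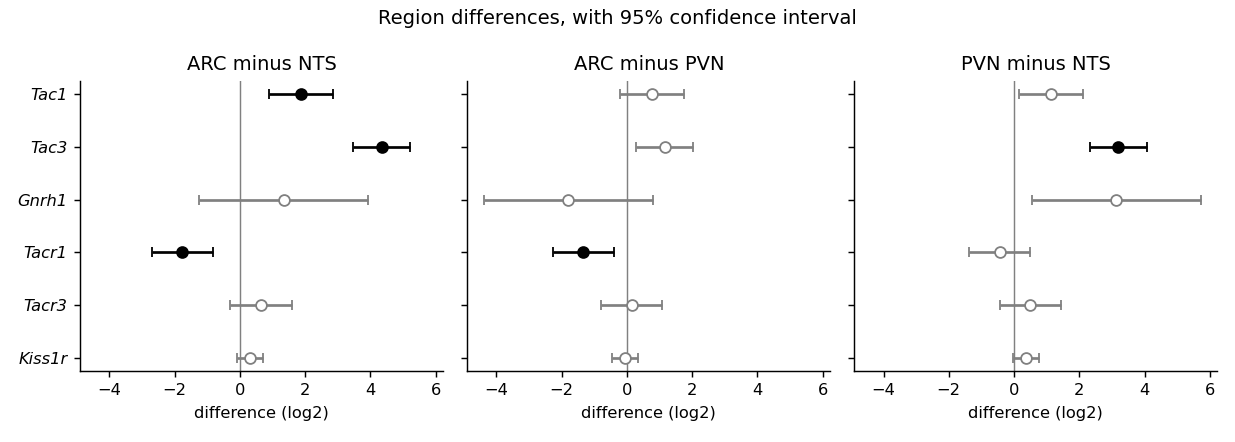
Differences between regions (log2, horizontal axis), with EB and Oil arrays averaged, for the 6 genes. Points are ARC minus NTS, ARC minus PVN and PVN minus NTS, bars are 95% confidence intervals from limma, and filled points were called. Tac3 is 4.35 higher in the ARC than in the NTS and Tacr1 differs by -1.77.

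Around these genes, a list of receptors and peptides of estradiol feedback held 14 measured of 16 genes. For EB, 0 were called among ARC arrays (list median -0.06), 0 among PVN arrays (0.10) and 1, higher, among NTS arrays (0). The shares of all genes called were 0.479%, 0.332% and 0.0776%. Pgr, the progesterone receptor gene and a known target of estradiol, had the smallest p of the list in the ARC and in the PVN. Its ARC signals were 9.65, 8.95 and 9.10 with EB, against 7.82, 8.57 and 8.73 with Oil. Its PVN signals were 9.61, 9.22 and 9.86 with EB, against 8.70, 8.91 and 8.88 with Oil. In both regions every EB array was above every Oil array, as for 5.77% of all genes in the ARC and 5.96% in the PVN. The differences were 0.86 in the ARC (SE 0.28, unadjusted p = 0.0168, adjusted p = 0.852, limma) and 0.73 in the PVN (SE 0.18, unadjusted p = 0.00416, adjusted p = 0.681), and neither reached a fold change of 2. In the ARC, Pgr passed the call without EB 2 (1.01) or Oil 3 (1.04). Its difference was smaller without EB 1 (0.66) or without Oil 1 (0.59), the array with the high PVN marker mean. In the NTS its difference was 0.29 (95% interval -0.31 to 0.89).

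Esr1, which encodes estrogen receptor α, had ARC signals of 10.13, 7.78 and 8.56 with EB, against 10.18, 10.91 and 9.39 with Oil. EB 2, the array with the low ARC marker mean, was the lowest. The difference of -1.33 (SE 0.61, unadjusted p = 0.0635, limma) was not called, and it was called without EB 1 (-1.99) or Oil 3 (-1.72). It was -0.81 without EB 2 and -0.03 without EB 2 and EB 3, the arrays with high midbrain marker means. Esr1 was below background in all 6 NTS arrays and at least 4.11-fold higher in the ARC and at least 4.35-fold higher in the PVN than the NTS background median. Among single treatments, the adjusted p was 0.0706 for ARC minus NTS among EB arrays and 0.0597 for PVN minus NTS among Oil arrays.

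Pdyn, the dynorphin gene, was the list's 1 call in the NTS, at 8.24, 7.24 and 8.18 with EB, against 6.96, 7.20 and 6.45 with Oil. EB 2 and all Oil arrays were below background. With the background median in place of the Oil signals, the fold change of the means is 1.35. The difference of 1.02 (SE 0.32, unadjusted p = 0.0148, adjusted p = 0.934, limma) was no longer called without EB 1 (0.84), EB 3 (0.87) or Oil 3 (0.81), without both EB 3 and Oil 3 (0.66), under median centring (0.98) or in the fit of all 18 arrays (unadjusted p = 0.101). In the ARC, Pdyn differed by -0.68 (95% interval -2.24 to 0.88). Npvf, the gene of RFamide-related peptide, which inhibits GnRH neurons, was below background in all NTS arrays and exceeded them in the ARC by 7.21 (SE 0.73, adjusted p = 3.57e-06), at least 32.2-fold. It was also called higher in the ARC than in the PVN, by 3.10 (SE 0.73, adjusted p = 0.00789), a call that was lost among Oil arrays alone (2.29, adjusted p = 0.165). In the PVN, Npvf was 11.47 in Oil 1, 11.39 in Oil 3 and 10.23 in EB 3, against 7.38 to 8.05 in the other arrays. In the ARC it was lowest in Oil 1 (9.87). Between regions, the list had 5 genes higher and 0 lower in the ARC than in the NTS, 1 higher and 0 lower in the ARC than in the PVN, and 6 higher and 0 lower in the PVN than in the NTS. The shares of all genes called in these comparisons, in either direction, were 7.13%, 2.23% and 5.55%.

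A list of the other tachykinin genes and of peptide processing and breakdown held 10 measured of 12 genes. For EB, 0 were called in any region, with list medians of 0.10 (ARC), 0.04 (PVN) and 0.10 (NTS). Tac4, the hemokinin gene, and Tacr2, the neurokinin 2 receptor gene, were below background in every array. Pam, whose enzyme adds the amide end that substance P and GnRH carry, exceeded the NTS by 1.81 in the ARC (SE 0.13, adjusted p = 2.04e-07, limma) and by 1.39 in the PVN (SE 0.13, adjusted p = 2.79e-06). In this list 3 genes were higher and 0 lower in the ARC than in the NTS, and 2 were higher and 1 lower in the PVN than in the NTS. The lower one was Mme, the gene of neprilysin, which cleaves tachykinins. Mme was below background in PVN EB 1, EB 2, EB 3 and Oil 2. Its NTS signals were 9.95 in EB 3, 9.84 in Oil 1 and 9.49 in Oil 2, the arrays with the highest choroid plexus marker means. They were 7.59 in EB 1, 7.71 in EB 2 and 8.01 in Oil 3. Whether the Mme call reflects choroid plexus in the NTS punches was not tested. Over all genes, 7.13% were called between ARC and NTS and 5.55% between PVN and NTS.

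A list of the Gq pathway, to which the kisspeptin and tachykinin receptors couple, held 12 measured of 13 genes. For EB, 0 were called among ARC arrays (list median 0.10), 1, higher, among PVN arrays (0.21) and 0 among NTS arrays (0.15). The shares of all genes called were 0.479%, 0.332% and 0.0776%. The call was Rgs4, a brake on Gq signalling, at 9.87, 9.92 and 8.85 with EB, against 8.21, 9.08 and 8.30 with Oil in the PVN. EB 3 and Oil 2 overlapped. The difference of 1.02 (SE 0.34, unadjusted p = 0.0186, adjusted p = 0.722, limma) lost its call without EB 1 (0.86), EB 2 (0.83), Oil 1 (0.86) or Oil 3 (0.90). It was also lost under quantile normalization (0.98) and median centring (1.00), and the difference was 0.47 without Oil 1 and Oil 3. Plcb1, a phospholipase of the pathway, had the smaller p in the PVN, with a difference of 0.57 (SE 0.15, unadjusted p = 0.00649, adjusted p = 0.681). Between regions, 2 genes of this list were higher and 0 lower in the ARC than in the NTS, and 1 was higher and 0 lower in the PVN than in the NTS. The shares of all genes called were 7.13% and 5.55%, and 1 of 12 lies near the latter.

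**Figure D4:**
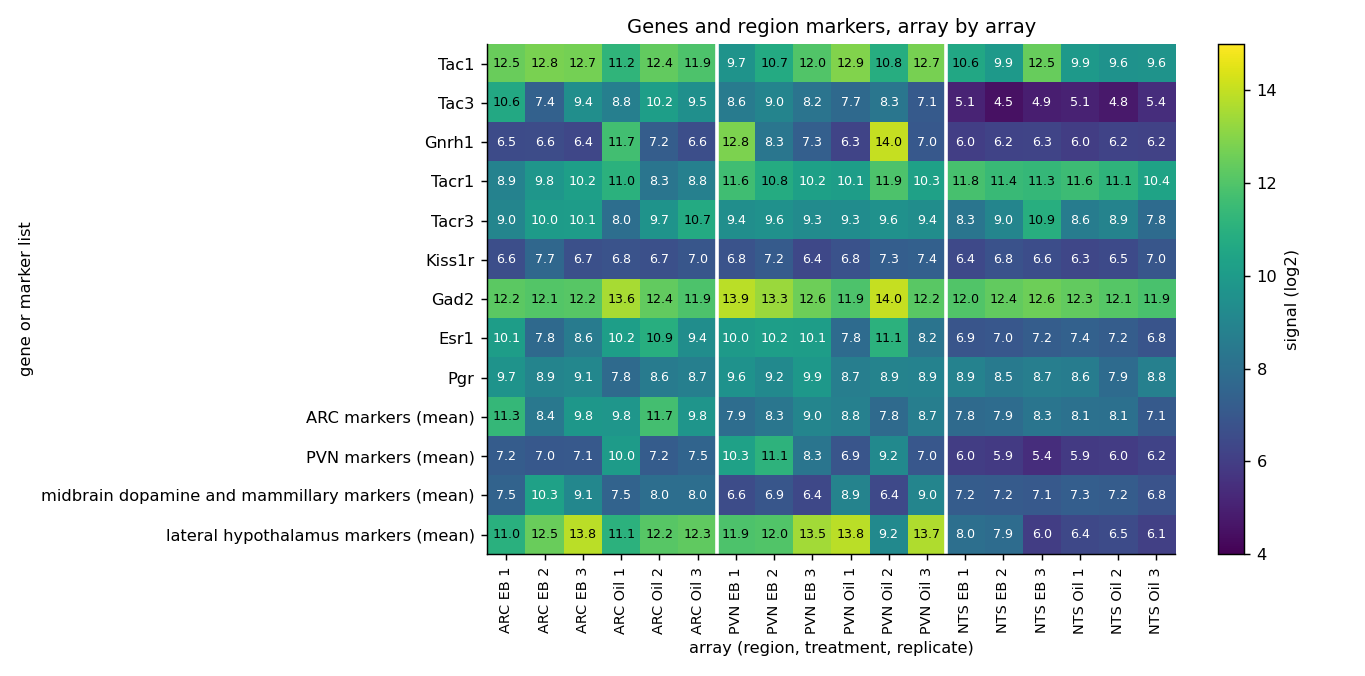
Signal intensity (log2, colour and printed value) of the 6 genes, 3 further genes and 4 marker list means in each array, with arrays as columns ordered by region and EB left of Oil. Gnrh1 is high in ARC Oil 1, PVN EB 1 and PVN Oil 2, columns in which Gad2 is also at its highest (13.57, 13.87 and 14.03).

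The genes whose signals ran most like each gene's over the 18 arrays are given as a description. The arrays share rats and region, and every coefficient includes the difference between regions. Tac3 ran closest to Hrh3, the histamine H3 receptor gene (Pearson r = 0.972), then Asb4 (0.957) and Igsf1 (0.955). Hrh3 lay between 9.52 and 10.37 in the ARC arrays, 9.07 and 10.06 in the PVN arrays and 7.47 and 7.89 in the NTS arrays, in the same order of regions as Tac3. Tac1 ran closest to Synpr (0.888), Syt6 (0.863) and Spats2l (0.842), Tacr1 to Ndst4 (0.861), Spred2 (0.859) and Rmdn1 (0.852), and Tacr3 to Proca1 (0.861), Grhpr (0.800) and Gnpnat1 (0.789). Proca1 was below background in all 18 arrays.

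Gnrh1 ran closest to Gad2, which makes the transmitter GABA, with r = 0.932 over the signals and 0.943 over the deviations from the 6 group means. Gad2 was at 13.57 in ARC Oil 1, 13.87 in PVN EB 1, 14.03 in PVN Oil 2 and 13.35 in PVN EB 2, the 4 arrays with Gnrh1 above background, and at 11.86 to 12.58 in the other 14. Radx (0.891) and Dlx5 (0.860) followed. Dlx5 was below background in all arrays. Over the deviations alone, the closest genes were Tmem167b for Tac3 (0.930), Sppl2a for Tac1 (0.883), Rp1 for Tacr1 (0.906) and Mme for Tacr3 (0.934). Rp1 was below background in all arrays, and Mme was above it in 12. Among the 6 genes, the deviations of Tacr1 and Gnrh1 ran together (r = 0.80) and those of Tac1 and Gnrh1 opposite (r = -0.73). These were the highest and the lowest coefficient of all their pairs, and Gnrh1 was above background in only 4 of the 18 arrays.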

How the data were processed

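Total RNA from ARC, PVN and NTS punches was measured on Rat Clariom S Pico arrays, 1 per sample. The deposited values are log2 signal intensities, which Thermo Fisher Scientific had background-adjusted, normalized and log2 transformed for the authors. Their own comparisons, made in the Transcriptome Analysis Console, were not used. The array version and genome build behind the probe sets are not given in the sources used here. Arrays have no read depth, so the number of arrays and the background limit precision.

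EB minus Oil was fitted per region on 6 arrays, and regions and their interactions with EB on all 18, with limma 3.58.1 and statmod 1.5.0 in R 4.3.3, over the 23188 gene probe sets without filter or further normalization. The 1646 control probe sets were left out. Adjusted p is by Benjamini-Hochberg over all 23188. EB calls needed, after the methods, a fold change of at least 2 with p not above 0.05 before adjustment. Permutation tests were exact and two-sided. Where every array of a group was below its background median, that median stood in for it. The fold change is then a lower bound if the other group's arrays were above background. Single signals below background in the other group were kept as they were. Steps were tested on simulated data. Plots used matplotlib 3.10.9 (Python 3.11.15).

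The 7 genes, the lists and the markers were chosen with earlier results of these data known. Named beyond the 7 are list members called for EB, up to 2 with the smallest p in a comparison, and the 3 genes most like each measured gene above background in at least 3 arrays. Chosen after their values were seen were Oxt, Avp, Npvf, Mme, Tac4, Pam between regions and Esr1 and Pdyn beyond the comparison that named them. Platform annotation gave 1 symbol to 15049 probe sets and none to 8139. Alternatives were quantile normalization, median centring, a filter on dim probe sets, eBayes with trend and robust, a joint fit, the replicate block and leaving out arrays.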

Additional observations from a re-analysis of the deposited data

How the results depend on the processing

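Leaving out 1 array at a time, the number of the 6 genes called ranged from 0 to 1 for EB in the ARC, 0 to 2 in the PVN and 0 to 1 in the NTS, from 3 to 4 for ARC minus NTS, 0 to 2 for ARC minus PVN and 1 to 2 for PVN minus NTS, and was 0 throughout for the EB effect between regions. For EB minus Oil, the ranges that crossed 0 were -0.16 to 0.36 for Kiss1r, -1.04 to 0.57 for Tac3, -0.30 to 1.08 for Tacr1 and -0.47 to 0.89 for Tacr3 in the ARC, -0.26 to 0.67 for Tacr1, -0.05 to 0.08 for Tacr3 and -1.29 to 2.83 for Gnrh1 in the PVN, and -0.14 to 0.17 for Kiss1r and -0.02 to 0.11 for Gnrh1 in the NTS. For ARC minus PVN they were -0.23 to 0.03 for Kiss1r and -0.17 to 0.51 for Tacr3, and for the EB effect on Tac1 in the ARC minus that in the NTS -0.98 to 0.29. Quantile normalization gave -0.01 for Tacr3, EB minus Oil in the PVN, and 2 calls for PVN minus NTS (Tac3 and Gnrh1). Median centring gave -0.02 for Tacr3, ARC minus PVN. ARC minus PVN had 0 calls under the filter on dim probe sets, with trend and robust, among EB arrays and among Oil arrays. The cause of these changes was not tested.

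Same-numbered EB and Oil arrays of a region deviated from their group means with correlations of -0.46 to 0.13, and same-numbered arrays of 2 regions with -0.11 to 0.42, so the numbers were not taken to pair arrays. With the number as a replicate block (consensus correlation 0.049 across regions), PVN minus NTS had 2 calls (Tac3 and Gnrh1), and no other count of called genes changed.

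Chosen after the data were seen were fits without arrays whose markers stand apart and fits within a treatment. Without ARC EB 2 and EB 3, whose Slc6a3 signal is high, EB minus Oil in the ARC was -0.18 for Kiss1r, 1.15 for Tac3, -0.49 for Tacr1 and -0.46 for Tacr3. Without PVN Oil 1 and Oil 3 it was -0.05 for Tac1, 0.25 for Tac3, -1.02 for Tacr1, -0.12 for Tacr3 and -4.55 for Gnrh1 in the PVN. Without NTS EB 3 and Oil 3 it was 0.17 for Kiss1r and -0.16 for Tacr3 in the NTS. None of these passed the call, and the lone array of a group was assumed to vary like the others. Without ARC EB 2, ARC Oil 1, PVN Oil 1, PVN Oil 3 and NTS Oil 3, ARC minus PVN was 1.47 for Tac3, -2.36 for Tacr1 and -5.07 for Gnrh1. PVN minus NTS was 3.58 for Tac3 and 5.61 for Gnrh1. Gnrh1 was below background in all the ARC and NTS arrays kept. The arrays left out include ARC Oil 1, with the highest Gnrh1 (11.66) and Tacr1 (11.04) of the ARC. They also include PVN Oil 1 and Oil 3, with Gnrh1 below background (6.26 and 7.04). PVN Oil 2, with the highest Gnrh1 (14.03), is left as the lone PVN Oil array. The choice of arrays thus fixes the Gnrh1 differences, and nothing about the regions is drawn from them. Among EB arrays, ARC minus PVN was 0.21 for Kiss1r and PVN minus NTS was -0.20 for Tac1. Among Oil arrays, ARC minus PVN was -0.34 for Tac1, and PVN minus NTS had 2 calls (Tac1 and Tac3). Other probe sets of a symbol gave no value, since each gene has 1.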
